A study of Arabidopsis thaliana with 44 samples.

Results

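WRKY transcription factor genes were examined in 5 tissues of Arabidopsis thaliana on the Agilent 22 K microarray. The members were the non-control probes whose description in the array design contains the word WRKY, 71 of 21500 gene probes, with 1 probe per gene. In the TAIR10.1 annotation 68 of them carry a WRKY name and 3 do not, namely POLAR, NFD1 and AT5G46310. A further 3 WRKY-named genes on the microarray (WRKY16, WRKY19 and WRKY52) have descriptions without the word and were not members.

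The study hybridized the same RNA samples to several expression platforms, of which the Agilent microarrays are used here. The 8 self-self microarrays carried 1 tissue in both dye channels, 2 each for actively growing callus, inflorescence (immature buds of mixed stages), root and leaf, the root and leaf coming from untreated plants 21 days old. The 2 root/leaf microarrays carried root RNA in the red channel and leaf RNA in the green channel, and the 2 silique/inflorescence microarrays carried RNA of siliques 24 to 48 h after fertilization in red and inflorescence RNA in green. Each tissue was 1 RNA sample and microarrays A and B were its technical replicates, so every test below measures technical error and not variation between plants.

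WRKY proteins are plant transcription factors that bind the W box, a short promoter element, through a domain named after its conserved amino acids. Group I members carry a pair of these domains, and groups IIa to IIe and III carry a single one. Many members act in pathogen defense and in salicylic acid and jasmonate signaling, and others act in senescence, nutrient responses, trichomes, pollen and seeds. By general knowledge of the family, the 68 named members were sorted into group I (13 genes), IIa (3), IIb (8), IIc (18), IId (7), IIe (7) and III (12).

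The share of gene probes well above background was 97.4% to 99.8% in each channel of the self-self and root/leaf microarrays. On silique/inflorescence microarrays it was 76.0% (A) and 70.5% (B) in the silique channel, against 91.6% and 90.2% in the inflorescence channel. Inflorescence RNA had 99.2% to 99.5% on its self-self microarrays. The silique/inflorescence microarrays were image-extracted on a day of their own and with Feature Extraction 7.1.1, all others with 6.1.1. Their lower shares cannot be told apart from day and software version. Root microarray A stood apart. Its red/green ratio over all gene probes, which should carry no tissue signal, had a Pearson's correlation of 0.63 and 0.60 with those of root/leaf microarrays A and B, while the other self-self microarrays had 0.00 to 0.12. RBCS1A, a subunit of the carbon-fixing enzyme of leaves, read 934 (red) and 1825 (green) normalized expression units (NEU, defined below) on root microarray A, 106 and 106 on root microarray B, and 1337 and 2669 on leaf microarray A. The root hair expansin EXPA7 read 41.6 and 40.5 NEU on root microarray A and 46.7 and 49.1 on B. The root marker COBL9 differed more, with 53.9 and 50.4 NEU on root microarray A and 88.2 and 90.1 on B. The remaining root marker, NRT2.1, was also lower on root microarray A than on B in both channels. Several counts of members called with root microarray A are therefore also given without it. Other counts that involve root, such as those of highest and lowest tissues and of partner genes, rest on both root microarrays. Of the floral markers, AP1, AP3 and SEP3 were high in inflorescence alone, while PI read 267 and 208 NEU in callus, against 518 and 429 in inflorescence.

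Levels in the single tissues are in NEU, for which each channel was scaled so that its gene probes summed to 1000000, and both channels were averaged. Across callus, inflorescence, root and leaf, 55 of 71 members (77.5%) varied at a limma F test with adjusted p under 0.05, against 70.5% of all gene probes. The median range between the highest and the lowest tissue was 2.08 on the log2 scale for members and 1.49 for all gene probes. Callus held the highest mean level of 39.4% of the members (28), inflorescence of 8.45% (6), root of 32.4% (23) and leaf of 19.7% (14), against 24.0%, 23.4%, 32.7% and 19.9% of all gene probes in the same order. Inflorescence held the lowest mean level of 36 members (50.7%), and of 22.7% of all gene probes. The summed level of the 71 probes was 4457 and 4643 NEU on the callus microarrays, 1030.1 and 974 in inflorescence, 1683 and 1730.2 in root, and 1382 and 1402 in leaf. Of the callus sum, 44.5% and 47.1% lay in 5 probes, and the median level of the members was 16.4 and 15.9 NEU in callus, 7.98 and 7.08 in inflorescence, 14.3 and 15.1 in root, and 12.7 and 13.5 in leaf. In whole tissues, fewer cells of a type and less RNA per cell cannot be told apart.

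**Figure D1:**
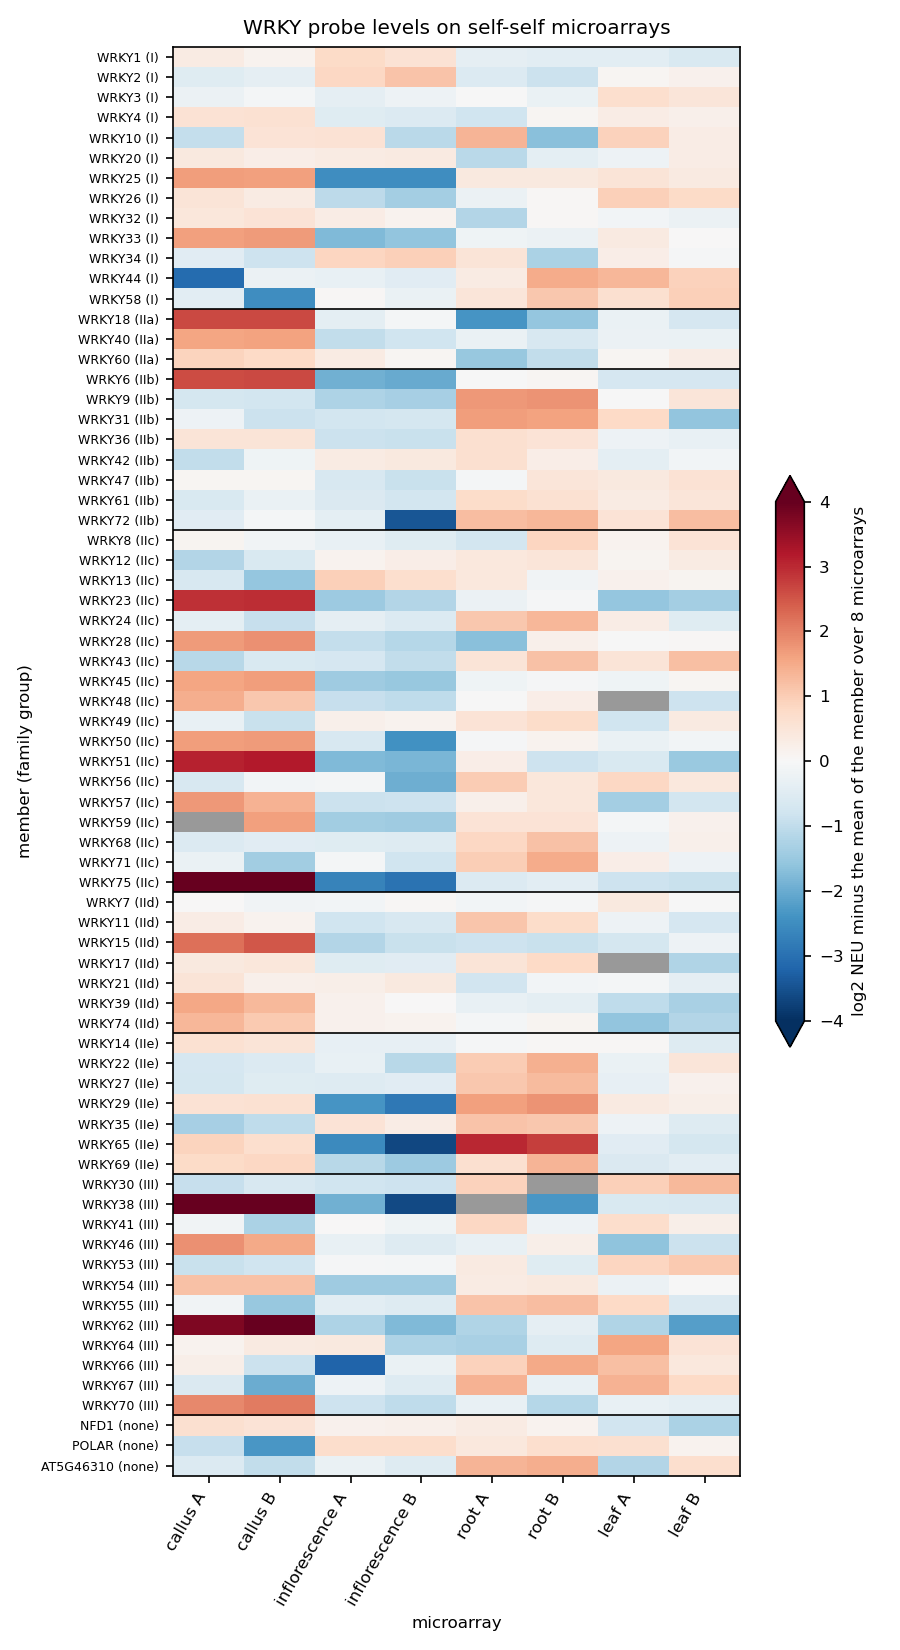
Log2 NEU of each member (rows, by family group) on the 8 self-self microarrays (columns), minus the member's own mean, with grey for a spot marked as an outlier by the scanner software. Callus had the highest mean level of 28 members (39.4%, against 24.0% of all gene probes). Inflorescence had the lowest of 36 members (50.7%, against 22.7%).

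Callus stood out in a large part of the family. In callus 22 of 71 members (31.0%) were higher than in each of inflorescence, root and leaf, against 8.86% of all gene probes. They were WRKY25 and WRKY33 of group I, WRKY18 and WRKY40 of IIa, WRKY6 of IIb, WRKY23, WRKY28, WRKY45, WRKY48, WRKY50, WRKY51, WRKY57, WRKY59 and WRKY75 of IIc, WRKY15, WRKY39 and WRKY74 of IId, and WRKY38, WRKY46, WRKY54, WRKY62 and WRKY70 of III. No group IIe member was among them. The 3 contrasts share the callus microarrays and are not independent of each other. Without root microarray A the count was 22 of 70 with 21 shared, and WRKY60 replaced WRKY50. Callus and inflorescence microarrays were image-extracted on 1 day and root and leaf on another, so the contrasts of callus with root and leaf cannot be told apart from the day.

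Taken singly, the contrast of callus with inflorescence called 32 members higher and 5 lower, against 15.5% and 21.5% of all gene probes, with a median log2 difference of 0.64 for members and -0.09 for all gene probes. Against leaf 30 were higher and 13 lower (24.5% and 28.0% of all gene probes), and against root 27 were higher and 21 lower (19.3% and 32.0%). The median member difference was 0.29 for callus against leaf. Against root it was -0.05, and with quantile normalization, which moved the median of all gene probes from -0.27 to 0.05, it was 0.47 with 31 members higher and 15 lower. Without root microarray A it was 0.23, with 23 members higher and 15 lower, so that the sign of this median was not settled.

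The widest range of all members was that of WRKY38 (AT5G22570, group III), a negative regulator of salicylic acid defense. WRKY38 read 269.6 and 266 NEU in callus, 3.03 and 0.947 in inflorescence, 2.28 on root microarray B (the spot on A was marked as an outlier), and 7.47 and 7.36 in leaf. The callus and inflorescence values did not overlap and differed by 7.31 on the log2 scale (SE 0.53, 158-fold, limma adjusted p = 0.00024), or by 8.14 without inflorescence microarray A and 6.47 without B. Its group III partner in that role, WRKY62 (AT5G01900), read 233 and 323 NEU in callus, 7.34 and 5.16 in inflorescence, 7.61 and 13.6 in root, and 7.55 and 3.77 in leaf, and callus exceeded inflorescence by 5.48 (SE 0.43, limma adjusted p = 0.00014). WRKY70 (AT3G56400), which acts between salicylic acid and jasmonate signaling, read 444 and 494 NEU in callus, 65.9 and 58.0 in inflorescence, 96.2 and 53.7 in root, and 96.4 and 90.8 in leaf. WRKY54, which acts with WRKY70 in defense and senescence, read 136 and 134 NEU in callus, 22.2 and 22.4 in inflorescence, 75.5 and 78.3 in root, and 51.2 and 59.8 in leaf. All of these were highest in callus, and in WRKY54 the root and inflorescence values lay apart as well. WRKY53, a regulator of leaf senescence in the same group, had the other order, with 5.78 and 6.19 NEU in callus, 10.4 and 10.2 in inflorescence, 13.8 and 7.61 in root, and 19.6 and 22.3 in leaf.

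Among the group IIa genes, which jointly restrain basal defense, WRKY18 (AT4G31800) read 520.1 and 523 NEU in callus, 63.4 and 79.3 in inflorescence, 16.3 and 28.7 in root, and 69.6 and 52.6 in leaf. Callus exceeded root by 4.59 on the log2 scale (SE 0.29, limma adjusted p = 0.00015). WRKY40 read 36.0 and 36.7 NEU in callus, 6.12 and 7.001 in inflorescence, 9.94 and 7.72 in root, and 10.2 and 10.1 in leaf. WRKY60 lay nearer to the other tissues, with 31.5 and 29.6 NEU in callus, 21.5 and 18.2 in inflorescence, 5.99 and 8.68 in root, and 18.2 and 21.0 in leaf. Root was low in WRKY18 and WRKY60, which were the 2 members lower in root than in each other tissue (3.11% of all gene probes).

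Group IIc supplied 9 of the 22 callus members. WRKY75 (AT5G13080), which acts in phosphate starvation and root hairs, read 236 and 252 NEU in callus, 2.21 and 1.82 in inflorescence, 9.54 and 10.4 in root, and 7.89 and 7.57 in leaf. Callus exceeded inflorescence by 6.93 on the log2 scale (SE 0.17, 122-fold, limma adjusted p = 5e-06). WRKY23 (AT2G47260), which acts in auxin responses of the root, read 328 and 335 NEU in callus, 15.9 and 19.1 in inflorescence, 36.8 and 42.0 in root, and 14.8 and 17.0 in leaf. In both genes the microarray pairs lay close together and root had the next highest mean, which in WRKY75 did not differ from leaf at the threshold on self-self microarrays (limma adjusted p = 0.15) but was higher on root/leaf microarrays, with log2 ratios of 0.75 and 0.88 (limma adjusted p = 7.66e-06). WRKY51, which acts in jasmonate signaling, read 197 and 214 NEU in callus, 6.96 and 6.58 in inflorescence, 28.4 and 13.2 in root, and 15.4 and 8.46 in leaf. WRKY45, a regulator of phosphate uptake, read 228 and 245 NEU in callus, 28.6 and 26.7 in inflorescence, 67.7 and 74.3 in root, and 67.8 and 80.8 in leaf. WRKY28, an activator of the salicylic acid synthesis gene ICS1, read 17.4 and 19.1 NEU in callus, 2.77 and 2.45 in inflorescence, 1.66 and 6.10 in root, and 5.34 and 5.55 in leaf.

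**Figure D2:**
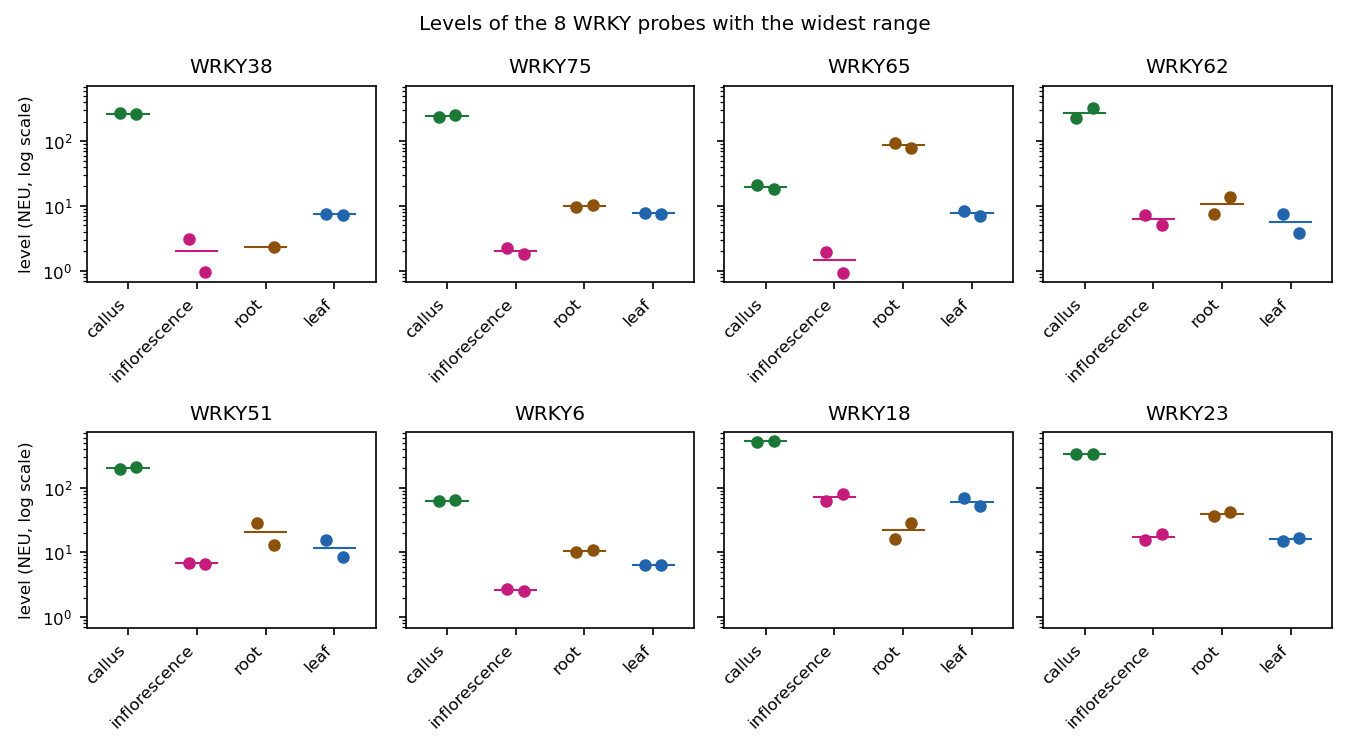
NEU (log axis) of the 8 members with the widest range of tissue means, with 1 dot for each of microarrays A and B and a line for their mean. Of these 8, WRKY65 was highest in root and the other 7 were highest in callus.

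In the remaining groups, WRKY6 (AT1G62300, group IIb), which acts in senescence and phosphate responses, read 63.0 and 64.1 NEU in callus, 2.68 and 2.52 in inflorescence, 10.1 and 10.7 in root, and 6.47 and 6.40 in leaf. WRKY33 of group I, an activator of camalexin synthesis needed for resistance to Botrytis, read 86.8 and 90.9 NEU in callus, 8.23 and 9.25 in inflorescence, 24.6 and 23.4 in root, and 35.5 and 28.2 in leaf. WRKY25, a group I gene of heat and salt tolerance, read 58.0 and 56.4 NEU in callus, 3.23 and 3.29 in inflorescence, 23.8 and 24.0 in root, and 26.1 and 23.6 in leaf. In these 3 genes inflorescence was the lowest tissue. WRKY15 of group IId read 419.7 and 511 NEU in callus, 41.0 and 49.4 in inflorescence, 52.0 and 49.8 in root, and 55.9 and 80.4 in leaf, so that the other 3 tissues lay near each other. WRKY39 of the same group read 125 and 104 NEU in callus, 47.7 and 42.8 in inflorescence, 35.0 and 32.5 in root, and 21.1 and 17.4 in leaf, with no overlap between tissues.

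A low level in callus was rarer. POLAR, WRKY12, WRKY13 and WRKY35 were lower in callus than in each other tissue, 4 members against 8.98% of all gene probes, and 3 members were without root microarray A, as WRKY13 dropped out. In WRKY13, which acts in stem development and flowering time, callus read 0.540 and 0.287 NEU and inflorescence 1.64 and 1.36. WRKY12, which acts in pith cell walls and flowering time, read 3.32 and 4.92 NEU in callus, 8.30 and 9.03 in inflorescence, 10.1 and 10.5 in root, and 8.13 and 9.32 in leaf.

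In some members callus and inflorescence both had lower means than root and leaf. WRKY43 of group IIc read 11.2 and 15.7 NEU in callus, 15.2 and 12.2 in inflorescence, 34.3 and 55.0 in root, and 34.2 and 55.7 in leaf. WRKY30 of group III read 7.35 and 8.78 NEU in callus, 7.92 and 7.80 in inflorescence, 26.3 on root microarray A (B was marked as an outlier), and 26.6 and 33.7 in leaf. WRKY72 of group IIb, which acts in basal defense, read 23.8 and 30.9 NEU in callus, 24.5 and 3.02 in inflorescence, 75.8 and 82.0 in root, and 47.7 and 75.7 in leaf. In WRKY43 and WRKY30 root and leaf did not overlap with callus or inflorescence, while the inflorescence microarrays of WRKY72 lay 3.02 apart on the log2 scale and callus did not differ from root in it at the threshold (limma adjusted p = 0.18).

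Inflorescence was the lowest tissue for many members. In inflorescence 12 of 71 members (16.9%) were lower than in each of callus, root and leaf, against 4.28% of all gene probes: WRKY25, WRKY26, WRKY33, WRKY6, WRKY36, WRKY47, WRKY45, WRKY59, WRKY75, WRKY29, WRKY65 and WRKY54. Without root microarray A the count was 15 of 70, with all 12 among them. Inflorescence microarrays were extracted on another day than root and leaf, so these contrasts cannot be told apart from the day either. The contrast of inflorescence with root called 6 members higher and 36 lower (22.3% and 26.4% of all gene probes), with a median of -0.97 for members and -0.09 for all gene probes. Without inflorescence microarray B it called 4 higher and 23 lower, and without root microarray A 5 higher and 29 lower with a member median of -1.22. Against leaf, 7 were higher and 21 lower (21.1% and 17.6%), and 4 higher and 14 lower without inflorescence microarray B. WRKY2, a regulator of pollen development and of the polarity of the zygote, was the 1 member higher in inflorescence than in each other tissue (6.91% of all gene probes), with 21.2 and 26.6 NEU in inflorescence, against 8.50 and 9.45 in callus, 8.30 and 6.66 in root, and 12.7 and 13.5 in leaf. WRKY1 of group I read 50.9 and 44.5 NEU in inflorescence, 37.5 and 32.8 in callus, 23.1 and 22.2 in root, and 22.4 and 19.6 in leaf, and inflorescence and callus did not differ at the threshold (limma adjusted p = 0.078). WRKY21 of group IId read 106 and 85.9 NEU in callus, 86.7 and 96.0 in inflorescence, 43.3 and 68.6 in root, and 69.6 and 57.2 in leaf (limma F test, adjusted p = 0.058).

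Genes that act with WRKY proteins gave a mixed picture in callus. All 10 listed genes of the salicylic acid pathway were higher in callus than in inflorescence, 8 were higher and 1 lower against root, and 8 were higher and 0 lower against leaf. Of all gene probes, 15.5%, 19.3% and 24.5% were higher in callus than in inflorescence, root and leaf. ICS1, the isochorismate synthase that makes most salicylic acid, read 173 and 157 NEU in callus, 2.18 and 2.27 in inflorescence, 4.19 and 2.77 in root, and 6.68 and 6.21 in leaf. The difference of callus from inflorescence was 6.21 on the log2 scale for ICS1 (limma adjusted p = 9.61e-06), 5.37 for the salicylic acid exporter EDS5, 5.06 for the defense regulator PAD4, 4.25 for PBS3, which acts in salicylic acid synthesis, and 3.73 for the salicylic acid receptor NPR3. The receptor NPR1 read 22.9 and 23.0 NEU in callus, 5.95 and 6.16 in inflorescence, 8.31 and 8.71 in root, and 11.1 and 9.73 in leaf. TGA2, a partner of NPR1 in the nucleus, was the gene lower in callus than in root.

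Defense output genes had other patterns. Of the 5 listed, PR1, PR2, PR5, FRK1 and PAD3, only PAD3, the last enzyme of camalexin synthesis, was higher in callus than in the other tissues, with 69.7 and 56.6 NEU in callus, 1.69 and 0.869 in inflorescence, 25.1 and 19.4 in root, and 13.7 and 9.32 in leaf. PR1, the usual marker gene of salicylic acid responses, read 4.67 and 1.71 NEU in callus, 4.58 and 2.73 in inflorescence, 3.19 and 5.003 in root, and 13.2 and 6.62 in leaf. Callus was below leaf by 1.72 for PR1, 4.13 for the glucanase PR2, 2.88 for PR5 and 2.47 for the kinase FRK1, on the log2 scale. Of 8 kinases and cofactors of WRKY proteins, MPK3 was the 1 higher in callus than in inflorescence (15.5% of all gene probes). It read 46.0 and 48.9 NEU in callus and 20.8 and 23.7 in inflorescence. Against root 3 of the 8 were higher in callus and 1 lower (19.3% and 32.0% of all gene probes). Against leaf 3 were higher and 1 lower as well (24.5% and 28.0%).

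**Figure D3:**
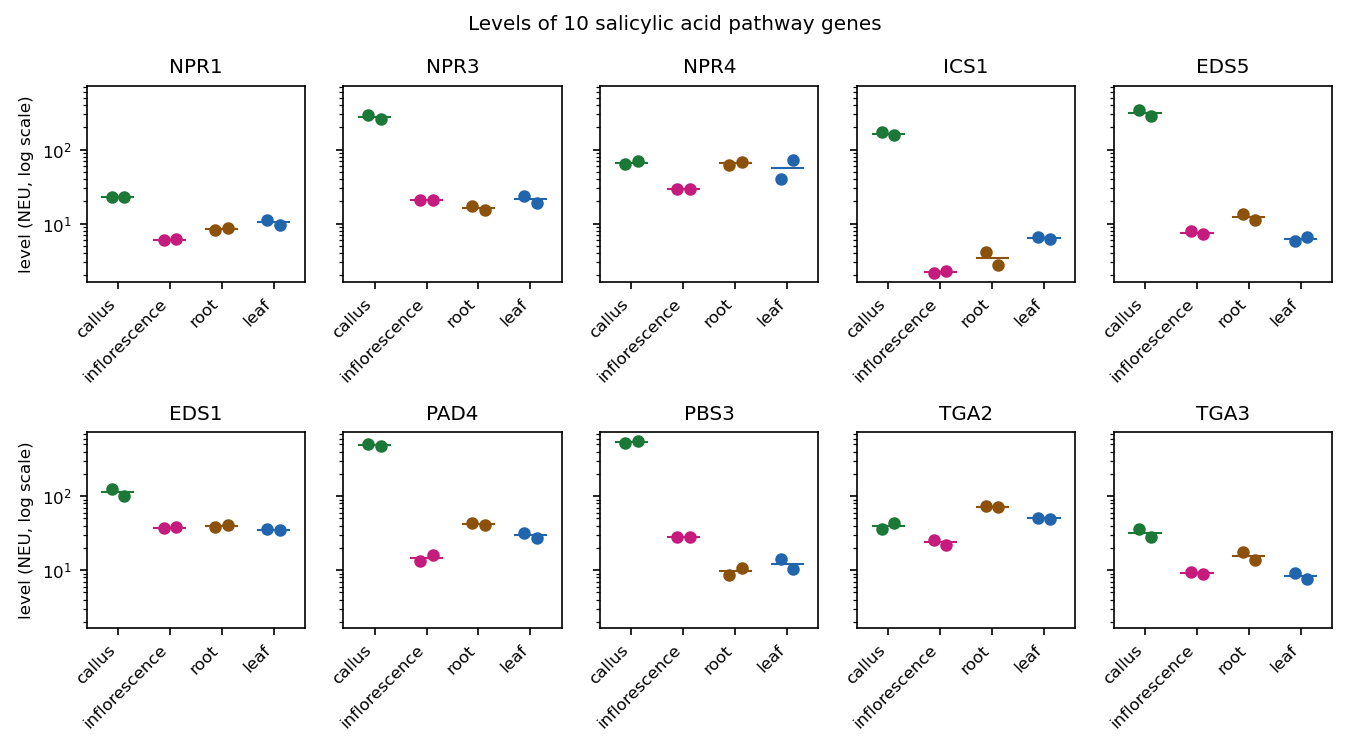
NEU (log axis) of the 10 listed genes of the salicylic acid pathway in callus, inflorescence, root and leaf, with 1 dot for each of microarrays A and B and a line for their mean. All 10 were higher in callus than in inflorescence, and TGA2 was highest in root.

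The root/leaf microarrays compared both organs within the same spots. On them 47 of 71 members (66.2%) passed the limma test at adjusted p under 0.05, near the 68.8% of all gene probes. Of these, 26 were higher in root and 21 lower (38.3% and 30.4% of all gene probes). At least 2-fold differences lay on 1 side only, with 13 members higher in root and 0 lower, while 11.6% and 10.9% of all gene probes were so. WRKY70 lay just short of this cut-off, at 1.99-fold lower in root. Dyes were not swapped on these microarrays. A dye term estimated from the self-self microarrays gave 23 members higher and 24 lower.

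Group IIe had the highest median log2 ratio of the groups, 1.67, with 6 of 7 members higher in root, 5 of them at least 2-fold. WRKY65 (AT1G29280) had log2 ratios of 3.17 and 3.10 on microarrays A and B, a mean of 3.14 (SE 0.09, 8.80-fold, limma adjusted p = 2.81e-08). Its self-self levels were 94.1 and 78.3 NEU in root and 8.46 and 7.08 in leaf, while callus had 21.3 and 18.4 and inflorescence 1.96 and 0.928. WRKY35 (2.30 and 1.62), WRKY69 (1.89 and 1.62) and WRKY29 (1.64 and 1.69) followed, and WRKY27, which acts in the response to the wilt bacterium Ralstonia, had 1.47 and 1.45. WRKY29 acts with WRKY22 in signaling by MAP kinases after flagellin perception. WRKY22 was the exception, with log2 ratios of -0.32 and -0.26 (limma adjusted p = 0.00178), although its self-self levels were 53.0 and 71.2 NEU in root, against 21.8 and 36.6 in leaf. Under every setting tried group IIe kept 6 members higher and 1 lower, with medians of 1.42 to 1.72.

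Group IIb had 6 of 8 members higher in root and 1 lower, with a median of 0.79. WRKY9 had log2 ratios of 1.94 and 3.29, a mean of 2.61 (SE 0.29, 6.11-fold, limma adjusted p = 7.03e-05), and its microarrays differed more than those of WRKY31 (1.91 and 2.16) or WRKY6 (1.04 and 1.02). With normexp and loess WRKY9 had 2.02 and WRKY31 1.41. Group IId had 4 higher and 2 lower, with WRKY11 at 1.06 and 1.14. WRKY11 and WRKY17 (0.95 and 0.93) jointly restrain basal defense. From group IIc came WRKY23 (1.46 and 1.38) and WRKY24 (1.16 and 1.08). NFD1, a mitochondrial ribosomal protein needed for fusion of nuclei, had 1.60 and 1.68. Among other transcripts, that of the phosphate transporter PHT1;1 was higher in root by 1.48.

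The members lower in root were nearer to 0. WRKY70 had log2 ratios of -1.04 and -0.95 (mean -0.99, SE 0.23, limma adjusted p = 0.0052). On root microarray A its log2 red/green ratio was -1.30, and without that microarray the limma adjusted p was 3.62e-06. WRKY26, a gene of heat tolerance, had -0.91 and -0.88, and the senescence regulator WRKY53 had -0.77 and -0.76. WRKY28 had -0.67 and -0.88, WRKY2 had -0.68 and -0.79, and WRKY3, which acts against necrotrophic pathogens, had -0.67 and -0.76. In group IIa WRKY18 (-0.62 and -0.51) and WRKY60 (-0.31 and -0.31) were lower in root, and WRKY40 (-0.28 and -0.27) missed the threshold (limma adjusted p = 0.0601) and passed it without root microarray A (limma adjusted p = 0.0189).

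Separate self-self microarrays of root and leaf gave fewer calls, 20 members higher in root and 7 lower (19.0% and 13.0% of all gene probes). Without leaf microarray A, 17 were higher and 1 lower, and without root microarray A, 16 and 7. Both designs called 23 members. Their sizes could differ, as in WRKY60, with -0.31 on root/leaf microarrays and -1.44 between self-self microarrays. Of the 23 members, 22 had the same direction, and this share was not counted over all gene probes. WRKY57, which acts in drought and in jasmonate-induced senescence, was the exception, with log2 ratios of -0.30 and -0.20 on root/leaf microarrays (limma adjusted p = 0.00126) and a difference of 1.37 between self-self microarrays (SE 0.26, limma adjusted p = 0.00932), where root had 14.3 and 17.2 NEU and leaf 4.89 and 7.53. Root was above each other tissue in WRKY9, WRKY11, WRKY24, WRKY27, WRKY29, WRKY35, WRKY65 and WRKY68, 8 members against 6.13% of all gene probes. Without root microarray A the count was 5, as WRKY11, WRKY24 and WRKY35 dropped out. Both root self-self microarrays were extracted on another day than callus and inflorescence microarrays, and were coded as another slide series. Contrasts of root with these tissues, here and above, cannot be told apart from day or series. On root/leaf microarrays WRKY68 did not differ at the threshold, with log2 ratios of 0.14 and 0.03 (limma adjusted p = 0.74). Leaf was above each other tissue in WRKY3 and WRKY53 (2.72% of all gene probes) and below each in NFD1, WRKY17, WRKY39 and WRKY74 (5.8%), of which WRKY39 dropped out without root microarray A.

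The silique/inflorescence microarrays asked which members differ between young fruits and flower buds. On them 53 of 71 members (74.6%) passed the limma test, 28 higher in silique and 25 lower, against 70.6% of all gene probes with 37.9% higher and 32.7% lower. By the fitted ratio, 9 were at least 2-fold higher and 8 at least 2-fold lower (8.13% and 8.02%), among them dim members for which only a bound or no fold is given below. The silique channel was dim, and 25 members were not well above background in it on either microarray, while 5 were not in the inflorescence channel. Where 1 channel was not well above background on either microarray, the difference is given as a bound on processed signals. For it the dim channel was set to the lowest signal well above background or to the probe's own signal, whichever was higher. That lowest signal is not a detection limit of the single probe. The bounds given below were not reached with normexp and loess. With normexp background correction (offset 50) and loess, 19 members were higher and 25 lower, and most ratios of dim members were nearer to 0. The offset is added to both channels and by construction draws dim ratios toward 0. Restricted to the 34 members well above background in all 4 channel readings, 28 passed (82.4%, against 76.6% of all gene probes), 12 higher and 16 lower.

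The highest ratio was that of WRKY44 (AT2G37260), also known as TRANSPARENT TESTA GLABRA 2, a regulator of trichomes and of mucilage and tannin in the seed coat. WRKY44 had log2 ratios of 4.19 and 4.58 on microarrays A and B (mean 4.38, SE 0.17, 20.8-fold, limma adjusted p = 1.52e-07), with the inflorescence channel well above background on 1 of 2, and 1.67 with normexp and loess. In the 4 other tissues its self-self levels were 3.35 NEU or lower. WRKY10 (AT1G55600), or MINISEED3, which acts in endosperm growth, had 3.32 and 2.28 (mean 2.80, SE 0.21, 6.96-fold, limma adjusted p = 6.14e-06), and 1.19 with normexp and loess. Both genes are known for roles in seeds. WRKY65 was at least 11.2-fold higher in silique on processed signals, with log2 ratios of 3.51 and 3.51 (limma adjusted p = 1.57e-08), but had 0.73 with normexp and loess, so the size of its difference depends on the background correction. WRKY28 had 1.97 and 2.15 (4.17-fold), with the inflorescence channel above background on 1 of 2, and 0.50 with normexp and loess. WRKY60 (1.22 and 1.27, 2.38-fold) and WRKY6 (0.89 and 1.25, 2.09-fold, and 0.35 with normexp and loess) were measured in both channels. WRKY8, WRKY61 and WRKY68 passed the test as well, but their silique channel was not well above background on either microarray and the inflorescence channel was on at most 1, so no fold is given. The WRKY61 call was lost with the deposited log ratio (0.40, limma adjusted p = 0.0554) and with normexp and loess (0.08, limma adjusted p = 0.259).

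Partners of WRKY44 were also read. TT8, the bHLH protein that acts with the WD40 protein TTG1 in seed coat pigment, was higher in silique by 5.29 on the log2 scale (39.1-fold, limma adjusted p = 4.28e-09), and GL2, a homeodomain regulator of trichomes and seed coat mucilage, by 3.07 (8.38-fold, limma adjusted p = 4.82e-09). TTG1 itself was lower, with -0.34 (limma adjusted p = 0.000513). The ovule and fruit genes SHP1, SHP2 and STK, used as tissue markers, were higher in silique by 2.63, 2.40 and 2.30.

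Of the members lower in silique, WRKY34 (AT4G26440), a gene of the male gametophyte, was at least 4.17-fold lower on processed signals. Its log2 ratios were -2.56 and -1.95 (limma adjusted p = 1.32e-06), with a silique channel not well above background. POLAR, a protein of stomatal lineage divisions, was at least 8.15-fold lower on processed signals, with -3.03 and -3.20. With normexp and loess WRKY34 had -0.68 and POLAR -1.17, so the size of both differences depends on the background correction. WRKY70 was well above background in all readings and had -1.61 and -1.81 (mean -1.71, SE 0.23, 3.27-fold, limma adjusted p = 0.000254). WRKY14 (2.94-fold), WRKY35 (2.72-fold) and WRKY58 (2.55-fold) were lower with a silique channel not well above background but brighter than the lowest such signal, so that the bound equals the measured fold, and WRKY31 was at least 1.81-fold lower. With normexp and loess these 4 had -0.47, -0.40, -0.34 and -0.30 on the log2 scale, in the same order. WRKY21 of group IId had -1.12 and -1.05 (2.12-fold). Group IId, whose members bind calmodulin, had 6 of 7 members lower in silique, with a median of -0.58, and WRKY11 higher at 0.59 and 0.59. The lower members were WRKY21, WRKY74, WRKY15, WRKY39, WRKY7 and WRKY17, which ranged from -1.09 to -0.33, and the same split of 6 and 1 was found under every setting tried.

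**Figure D4:**
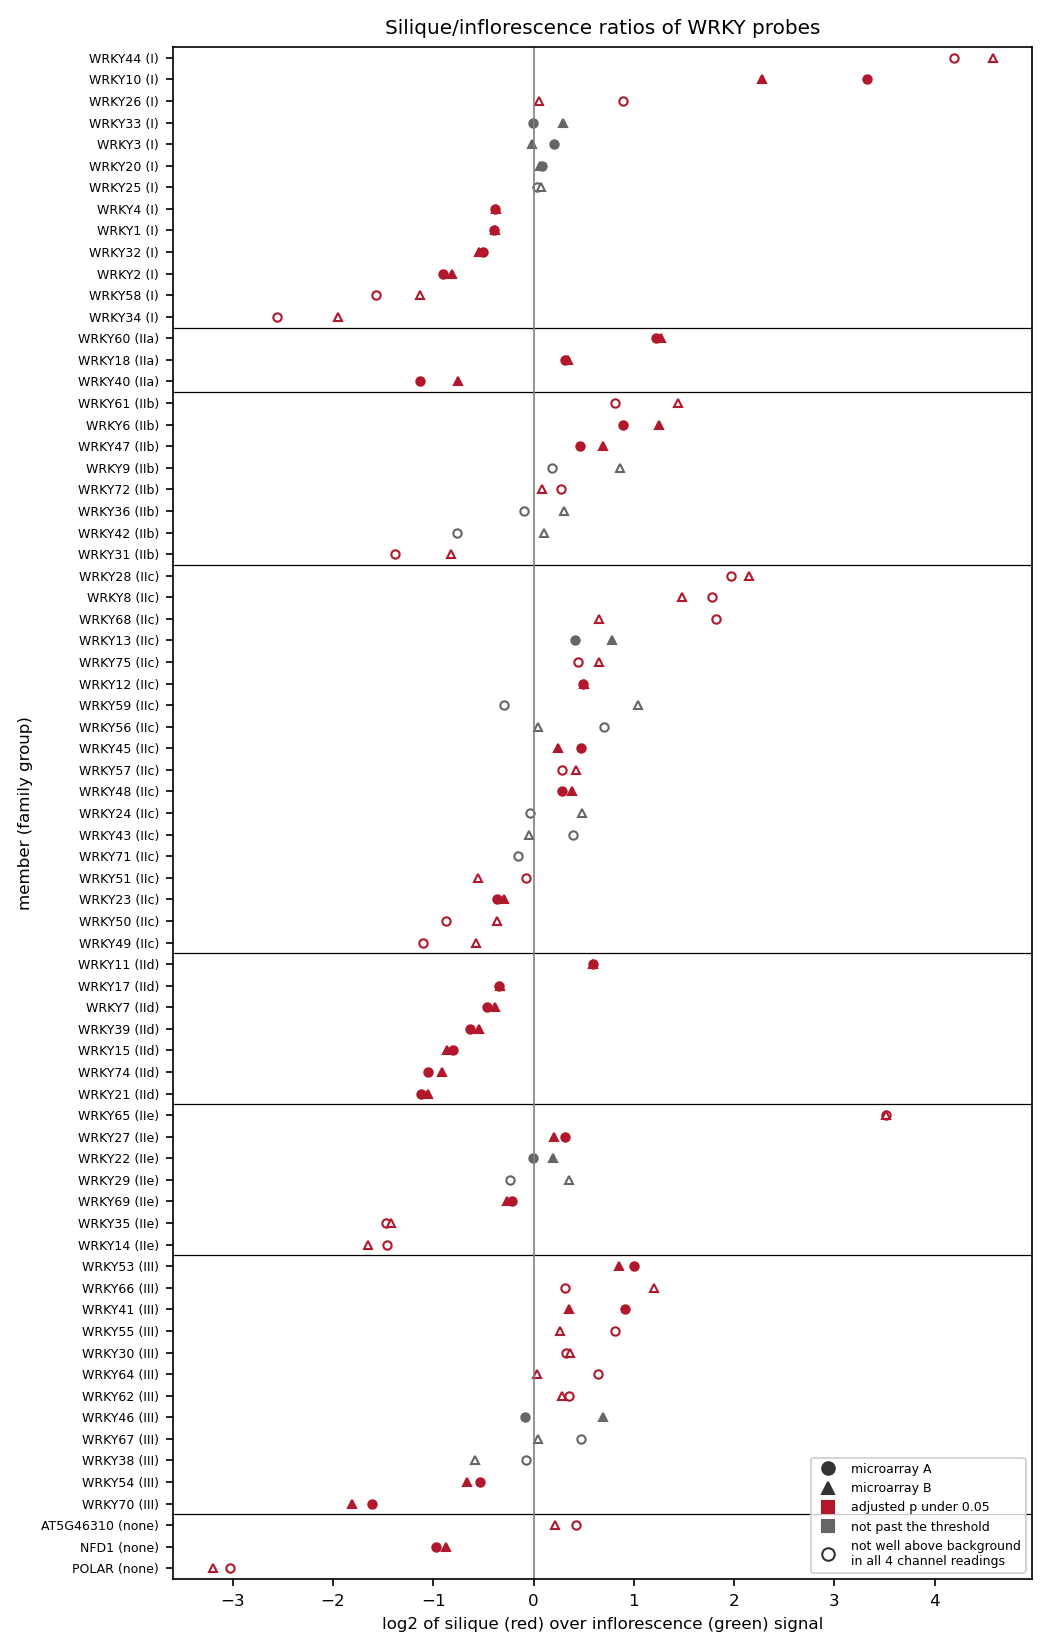
Log2 ratio of silique over inflorescence for each member on silique/inflorescence microarrays A (circles) and B (triangles), by family group, in red where limma adjusted p was under 0.05 and in grey otherwise. Open symbols mark the 37 members not well above background in all 4 channel readings, and WRKY44 lies farthest to the right at 4.19 and 4.58.

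Among the members that did not pass the F test over the 4 tissues, WRKY7 of group IId read 15.1 and 13.6 NEU in callus, 14.1 and 15.5 in inflorescence, 13.9 and 14.4 in root, and 19.5 and 15.0 in leaf (limma adjusted p = 0.514). WRKY10 read 2.37 and 6.72 NEU in callus, 6.87 and 2.20 in inflorescence, 11.9 and 1.45 in root, and 8.72 and 5.70 in leaf, so that its technical replicates differed more than its tissues. The median difference between microarrays A and B over the members was 0.20 (log2 NEU) in callus, 0.17 in inflorescence, 0.26 in root and 0.34 in leaf, and 0.08 and 0.21 for the root/leaf and silique/inflorescence log2 ratios. Over all gene probes it was 0.22, 0.16, 0.28 and 0.33 in the same order of tissues, and 0.07 for either ratio. The members thus spread more than all gene probes on silique/inflorescence microarrays, and the fit of ratios pooled that spread with the other microarrays. AT5G46310, which has no WRKY name, read 15.7 and 11.6 NEU in callus, 19.2 and 16.3 in inflorescence, 59.3 and 63.3 in root, and 10.2 and 36.7 in leaf. On root/leaf microarrays AT5G46310 was instead lower in root, with log2 ratios of -0.20 and -0.18 (limma adjusted p = 0.0179). POLAR lies next to WRKY18 in the annotation, yet callus held the lowest level of POLAR and the highest of WRKY18. The neighbouring pairs WRKY54 and WRKY55, and WRKY64 and WRKY67, are close relatives whose probes may share signal, which was not tested. In callus WRKY54 read 136 and 134 NEU, and WRKY55 read 7.31 and 2.86.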

How the data were processed

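Callus, inflorescence, root, leaf and silique RNA of Arabidopsis on 12 Agilent microarrays was analysed; Affymetrix and MPSS data were not used here. The processed red and green intensity of each spot, which the authors had made in Feature Extraction (8.1 in the labels, 6.1.1 and 7.1.1 in the file headers) by background subtraction and dye normalization, was read from the scanner files. The deposited log10 ratio of red over green served as an alternative. The array design names no genome build here, so no coordinates are given, and symbols came from TAIR10.1. The number of microarrays limits the precision.

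Log2 ratios of processed intensities (12 microarrays, 1 mean per type) and log2 NEU (8 self-self microarrays, 1 mean per tissue) were fitted in limma 3.58.1 (lmFit, then eBayes with a trend) under R 4.3.3, with Benjamini-Hochberg adjustment over all gene probes and a threshold of 0.05. Control spots and spots marked as outliers (6 of 852 member spots, at 6 members) were left out. Bounds use, per microarray, the higher of the lowest signal well above background and the probe's own. The fits were checked on simulated data, for levels with a trend and for ratios without one. In these data a probe had the same spread on all microarrays, so the ratio fit with a trend was not itself checked. Python 3.11.15 with pandas 2.3.3, numpy 2.4.6 and matplotlib 3.10.9 was used.

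The members, gene lists and family groups were chosen with earlier results of these data known. Named were the members past the threshold and at least 2-fold on the 2-tissue microarrays (up to 12 in each direction), the 5 with the highest mean NEU in a tissue, the 8 with the widest range, members with a known role, and listed partner and marker genes. Further members, given as exceptions or for their pattern, were chosen after their values were seen.

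Alternatives were other normalizations (normexp with offset 50 and loess or quantile, 75th percentile), single channels, only probes well above background, no saturated spots, no trend, a dye term, slide series or replicate letter as a block, and leaving out each microarray. Slide series was read from barcodes that are shortened for the root microarrays, so it is uncertain. Both root self-self microarrays and leaf microarray B were coded as series 2, and all others as series 1.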

Additional observations from a re-analysis of the deposited data

How the results depend on the processing

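No named difference past the threshold changed sign under any alternative, but the balance of higher and lower members did. The count of members past the threshold on silique/inflorescence microarrays was 28 with only probes well above background, by construction from 34 members tested. Without inflorescence replicate B the counts were 18 for inflorescence against leaf and 27 for inflorescence against root. Leaving out 1 microarray at a time gave 38 to 48 members for root/leaf, 51 to 56 for silique/inflorescence, 48 to 54 for the F test, 38 to 47 for callus against root, 31 to 47 for callus against leaf, 30 to 40 for callus against inflorescence, 18 to 31 for inflorescence against leaf, 27 to 38 for inflorescence against root, 18 to 25 for root against leaf, 19 to 22 highest in callus and 10 to 15 lowest in inflorescence. The letters A and B did not pair the microarrays (correlations of A minus B from -0.20 to 0.17), and with the letter as a replicate block the counts were 47 for root/leaf, 53 for silique/inflorescence, 55 for the F test, and 48, 45, 37, 27, 39 and 24 for callus against root, leaf and inflorescence, inflorescence against leaf and root, and root against leaf. With normexp and loess, 26 members were higher and 35 lower on root/leaf microarrays and 19 and 25 on silique/inflorescence microarrays, and with a dye term 23 and 24 on root/leaf microarrays. For callus against leaf, quantile normalization gave 32 higher and 7 lower, with or without normexp. Of 1197 values of the 77 followed differences under alternatives, 1176 kept their side of the threshold, 15 fell short of it and 6 newly passed it. Named silique/inflorescence ratios of dim members were nearer to 0 with normexp and loess, and the cause was not tested. With normexp and quantile normalization, callus exceeded inflorescence by 6.33, 6.09 and 3.04 in WRKY38, WRKY75 and WRKY65. The deposited and the processed log2 ratio there differed by up to 1.44, and by over 0.1 for 7 members. Signal over background in the silique channel limits the dim members.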
